A study of Homo sapiens with 18 samples.

Results

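The 8 genes described here encode transcription factors and 1 coactivator that build the kidney: PAX2, PAX8, EYA1, SALL1, WT1, LHX1, MAF and TFCP2L1. They were taken by name from the 23106 genes counted in each of 18 samples, and all 8 were present. PolyA+ RNA had been sequenced from 3 established human lines, each in normoxia and in hypoxia with 3 replicates, so that there were 6 groups. HKC-8 is a line derived from renal proximal tubule, HepG2 derives from hepatocellular carcinoma, and RCC4+VHL (RCC4 below) is a renal carcinoma line labelled as carrying VHL in normoxia and hypoxia alike. VHL is the recognition subunit of the ubiquitin ligase that destroys hydroxylated HIF-α, and parental RCC4 cells are known to lack it. For hypoxic HepG2 cells the labels give 0.5% oxygen for 16 h. For hypoxic HKC-8 cells they give 0.5% for 16 h in 1 field and 0.1% in the title, and for hypoxic RCC4 cells 1.0% for 24 h, although the study's text describes a single exposure for the lines. Exposure and cell line can therefore not be told apart where responses are compared between RCC4 and the other lines. If the title of the hypoxic HKC-8 samples is right, the same holds for HKC-8 against HepG2. The labels do not say that replicates were separate cultures, so p-values measure the spread between these samples, which may be technical.

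Kidney epithelium arises from intermediate mesoderm, where PAX2 and PAX8, a pair of closely related paired-domain factors, act together to set the renal fate. EYA1, a coactivator that works with homeodomain partners, SALL1, a zinc-finger repressor, and WT1, a zinc-finger factor later restricted to podocytes, keep the nephron progenitors of the metanephric mesenchyme. LHX1, a LIM-homeodomain factor that needs LDB1, patterns the early nephron. MAF is a large leucine-zipper factor, and TFCP2L1, of the grainyhead-like family, is known from the distal nephron and collecting duct. In the adult, PAX8 stays on along the tubule and is used in pathology to recognise renal tumours.

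Library totals were 40915980 to 97984260 counts per sample, with HKC-8 libraries (75441764 to 97984260) above RCC4 (42045335 to 51794355) and HepG2 (40915980 to 48355303), so that depth and line are confounded. A count of 3 in a sample, taken as the floor, corresponded to 0.0306 to 0.0733 CPM, a limit for counting error only. Of 12 hypoxia-induced genes, a list chosen with earlier results of these data known, all 12 tested rose in hypoxic HKC-8 and HepG2 cells. So did the 10 tested in RCC4. CA9 and EGLN3 were not tested in RCC4 and did not reach 1 CPM in every hypoxic sample there. All 14 liver markers stood at 1 CPM or more in HepG2. Of 16 proximal tubule markers only ANPEP and GATM did so in HKC-8. There the megalin gene LRP2 and the transporter genes SLC5A1, SLC22A6 and SLC22A8 had 0 counts in normoxia. In RCC4 5 of 16 stood at 1 CPM or more, and in normoxic HepG2 3 of 16 (GGT1, ANPEP and DPEP1). The summed normoxic level of the list was highest in HepG2 (332.3 to 342.7 CPM), lower in RCC4 (213.9 to 220.7) and lowest in HKC-8. These markers therefore did not set the kidney lines apart from HepG2.

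The promoters of the factors that the hypoxia comparison turns on are shown first, because the core of the HIF binding site can be looked for in them. HIF binds the core ACGTG or GCGTG, read on either strand (on the other strand CACGT or CACGC). The cores differ in their first base and so cannot match at the same place and strand. RefSeq's promoter table, on GRCh38.p14, held 5 of the 8 factors: PAX2, PAX8, MAF, WT1 and TFCP2L1. The 250 bases before the start site are given 5′ to 3′ on the gene's own strand, with core matches in capitals.

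PAX2 promoter, chr10:100735146-100735395, plus strand: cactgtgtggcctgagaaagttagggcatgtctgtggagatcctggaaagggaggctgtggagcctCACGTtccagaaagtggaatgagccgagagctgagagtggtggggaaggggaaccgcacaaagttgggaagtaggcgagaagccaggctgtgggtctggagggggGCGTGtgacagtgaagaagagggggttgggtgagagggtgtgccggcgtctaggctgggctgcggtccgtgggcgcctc

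PAX8 promoter, chr2:113278922-113279171, minus strand: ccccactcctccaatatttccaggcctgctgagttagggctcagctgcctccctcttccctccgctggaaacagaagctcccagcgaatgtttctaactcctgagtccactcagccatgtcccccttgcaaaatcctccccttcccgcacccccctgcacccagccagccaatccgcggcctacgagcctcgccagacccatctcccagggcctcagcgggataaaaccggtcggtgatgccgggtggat

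MAF promoter, chr16:79600738-79600987, minus strand: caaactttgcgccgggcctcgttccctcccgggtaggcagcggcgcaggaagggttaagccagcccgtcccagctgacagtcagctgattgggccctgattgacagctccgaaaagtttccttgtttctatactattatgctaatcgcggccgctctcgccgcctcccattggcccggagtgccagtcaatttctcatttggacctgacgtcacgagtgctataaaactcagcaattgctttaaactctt

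The PAX2 window held 2 matches, starting 184 and 79 bases before the start site, and a second PAX2 promoter further into the gene held 0. The PAX8 and MAF windows held 0. Of 4 WT1 promoters 3 held 1 match each, and the TFCP2L1 window held 1, at 130 bases before the start. For comparison, 43.2% of all 35116 RefSeq promoters of this length held at least 1 match, and 5 of the 9 member promoters did. A match is a stretch of letters, not a bound site.

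Which lines expressed which factor was read from CPM scaled by TMM factors to make libraries comparable (TMM CPM). A factor was called expressed in a group where each of its samples had at least 1 TMM CPM. By this rule 1 of the 8 factors was expressed in normoxic HKC-8 cells (PAX8), 4 in normoxic RCC4 cells (PAX2, PAX8, MAF and SALL1) and 3 in normoxic HepG2 cells (PAX8, MAF and SALL1). Of all genes, 49.3%, 49.8% and 50.7% were expressed in these groups. In hypoxia the numbers were 1, 5 and 2, because LHX1 passed 1 TMM CPM in each hypoxic RCC4 sample and MAF fell under it in 1 hypoxic HepG2 sample. EYA1, WT1 and TFCP2L1 were expressed by this rule in no group. In RNA from whole cultures, fewer expressing cells and less RNA per cell cannot be told apart.

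**Figure D1:**
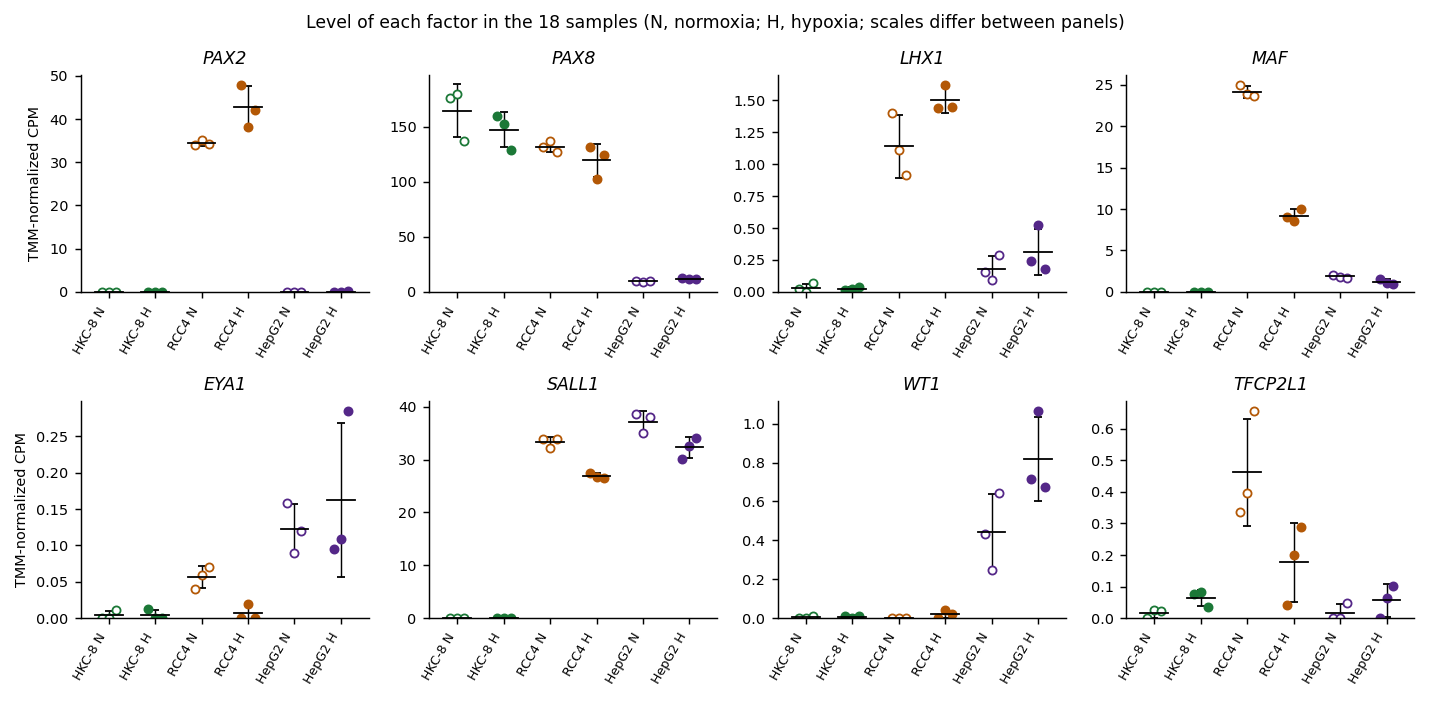
Level of each factor in TMM-normalized CPM (vertical axis, linear, with its own scale in each panel) in the 6 groups on the horizontal axis. Open circles are normoxic and filled circles hypoxic samples, the horizontal bar is the mean and the error bar the SD of 3 samples. PAX2 stood at 34.0 to 47.9 in RCC4 samples and near 0 elsewhere, PAX8 was high in both kidney lines, and SALL1 was at 0 in HKC-8.

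PAX8 (GRCh37, chr2:113973574-114036498, minus strand) was the factor shared by the 3 lines. Normoxic HKC-8 samples had 176.5, 180.1 and 137.1 TMM CPM, RCC4 samples 131.9, 136.6 and 127.0, and HepG2 samples 10.0, 8.77 and 9.50. Each kidney sample lay far above each HepG2 sample, and the kidney lines did not overlap, with 137.1 the lowest HKC-8 and 136.6 the highest RCC4 value. Compared with HepG2, PAX8 was 17.2-fold higher in HKC-8 (log2 difference 4.10, SE 0.12, edgeR's quasi-likelihood test, adjusted p = 1.947e-11) and 14.2-fold higher in RCC4 (3.83, SE 0.07, adjusted p = 6.467e-15). The difference between HKC-8 and RCC4 was 0.31 (SE 0.09, adjusted p = 0.01029) and was lost without RCC4 normoxic replicate 3 (adjusted p = 0.05732). Such a call was common. Between HKC-8 and HepG2 82.2% of tested genes differed (39.8% higher and 42.4% lower in HKC-8), and of the 4 factors tested 1 was higher and 3 lower. Between RCC4 and HepG2 87.1% differed (41.3% higher and 45.8% lower in RCC4), and of 7 factors 5 were higher and 1 lower. Between HKC-8 and RCC4 85.0% differed (43.6% higher and 41.3% lower in HKC-8), and of 6 factors 1 was higher and 5 lower.

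PAX8 carries a partner on the other strand, PAX8-AS1, with which it shares 1651 exon bases, or 22.4% of its own, and the strand setting of the counting is not given in the sources used here. The partner is listed as LOC654433, which bears the RefSeq gene number of PAX8-AS1. In normoxia it had 305 to 362 counts beside 12462 to 14718 for PAX8 in HKC-8 cells, 68 to 86 beside 5426 to 6876 in RCC4 and 40 to 91 beside 392 to 442 in HepG2. The annotation also places genes that were not analysed here on the other strand of LHX1, EYA1 and SALL1.

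PAX2 (chr10:102495153-102589701, plus strand) was expressed in RCC4 and in neither other line. Its counts were 1720, 1767 and 1463 in normoxic RCC4 samples, 0, 0 and 4 in HKC-8 and 0, 0 and 2 in HepG2. The RCC4 samples thus stood apart from every sample of the other lines. Summed over 3 samples and scaled, PAX2 was 2267-fold higher in RCC4 than in HepG2, with a 95% counting interval of 627 to 18720. The ratio of RCC4 to HKC-8 was 2178. The HepG2 level rested on 2 counts in 1 sample and the HKC-8 level on 4 counts in 1 sample. PAX2 and PAX8, the related pair, were therefore both on in RCC4, whereas HKC-8 and HepG2 had PAX8 with PAX2 at or near the floor.

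SALL1 (chr16:51169893-51186245, minus strand) divided the kidney lines the other way from PAX8. It had 0 counts in all 6 HKC-8 samples, and 33.9, 32.3 and 33.8 TMM CPM in normoxic RCC4 and 38.6, 34.96 and 38.0 in normoxic HepG2 cells. Set against the floor of 3 counts per sample, SALL1 was at least 923-fold higher in RCC4 and at least 1022-fold higher in HepG2 than in HKC-8. RCC4 and HepG2 samples did not overlap, yet the log2 difference of RCC4 from HepG2, -0.13 (SE 0.06), missed the threshold with an edgeR adjusted p of 0.06683. It passed it without HepG2 normoxic replicate 2 (adjusted p = 0.0236) and with at least 10 counts required in every sample (-0.15, adjusted p = 0.04226), and in hypoxic samples the difference was -0.24 (adjusted p = 0.001517).

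MAF (chr16:79619740-79634634, minus strand) separated the 3 lines. Normoxic RCC4 samples had 24.99, 23.9 and 23.6 TMM CPM and HepG2 samples 2.08, 1.81 and 1.67, while HKC-8 samples had 1, 0 and 0 counts. No sample of 1 line reached the range of another. MAF was 13.2-fold higher in RCC4 than in HepG2 (log2 3.72, SE 0.11, edgeR adjusted p = 8.814e-13), and the ratio of HepG2 to HKC-8 was 467, with a 95% counting interval of 83.0 to 18520.

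The other factors were near or under the limit of detection in most samples. LHX1 (chr17:35294084-35301912, plus strand) had 71, 56 and 39 counts in normoxic RCC4, 7, 4 and 12 in HepG2 and 2, 0 and 6 in HKC-8 samples, and was 6.52-fold higher in RCC4 than in HepG2 (log2 2.71, SE 0.39, edgeR adjusted p = 1.681e-05). WT1 (chr11:32409321-32457110, minus strand) was a HepG2 transcript at low level, with 19, 11 and 27 counts in normoxia, 0 in all normoxic RCC4 and 0, 0 and 1 in HKC-8 samples. Its antisense neighbour WT1-AS shares 47 exon bases with it and had 0 to 4 counts in any sample. Set against the floor, WT1 was at least 6.23-fold higher in HepG2 than in RCC4. Of 9 podocyte markers, the segment where WT1 persists, 2 were at 1 TMM CPM or more in normoxic HepG2 (PODXL and SYNPO). PTPRO, CLIC5, PLA2R1 and TCF21 were among those at 0 there. PODXL and SYNPO were also at 1 TMM CPM or more in normoxic HKC-8 and RCC4 cells, and PTPRO in RCC4. The summed level of the list in normoxia was 11.3 to 13.6 TMM CPM in HepG2, 112 to 121 in HKC-8 and 185.1 to 199.3 in RCC4.

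TFCP2L1 (chr2:121974163-122042778, minus strand) had 17, 20 and 28 counts in normoxic RCC4, against 0 to 2 in normoxic HKC-8 and HepG2 samples, a ratio of 29.8 to HepG2 with a 95% counting interval of 7.92 to 251. EYA1 (chromosome 8, minus strand) never exceeded 11 counts. It had 7, 4 and 5 counts in normoxic HepG2, 2, 3 and 3 in RCC4 and 0, 0 and 1 in HKC-8 samples, and passed edgeR's count filter in no line. At this depth its levels in the kidney lines were at or under the floor.

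To set the factors against each other, levels were divided by the length of the canonical transcript (RPKM). In normoxic RCC4 cells PAX8 led with 32.5 ± 1.19 (SD, n = 3), followed by MAF with 9.05 ± 0.272, PAX2 with 8.22 ± 0.14 and SALL1 with 6.50 ± 0.18, and these ranges did not overlap. Before division by length the means were 34.4 TMM CPM for PAX2, 33.3 for SALL1 and 24.2 for MAF. The order of MAF, PAX2 and SALL1 therefore depends on the transcript lengths chosen, an error that the spread between samples does not measure. In normoxic HepG2 cells SALL1 led with 7.25 ± 0.383, ahead of PAX8 with 2.33 ± 0.154 and MAF with 0.696 ± 0.0788. In HKC-8 cells PAX8 stood alone, at 40.6 ± 5.88.

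**Figure D2:**
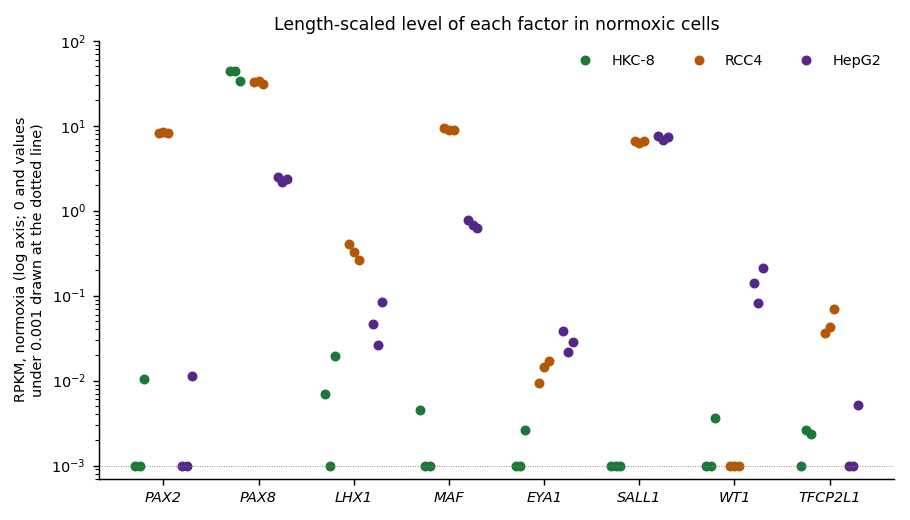
Normoxic level of each factor in RPKM on a log axis, 1 point per sample, with lines by colour. Values of 0 or under 0.001 are drawn on the dotted line. Only PAX8 was above 1 RPKM in each line, and SALL1 was at 0 in all 3 HKC-8 samples.

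The response to hypoxia was then compared within each line. The factors that passed the filter moved by small amounts apart from MAF, TFCP2L1 and WT1, and directions differed between factors. In RCC4 cells 6 of the 8 factors were tested: PAX2 rose, MAF, SALL1 and TFCP2L1 fell, and PAX8 and LHX1 did not pass the threshold. In HepG2 cells 4 were tested: PAX8 rose, MAF and SALL1 fell, and WT1 did not pass. In HKC-8 cells PAX8 alone was tested, and it did not pass. Of all genes tested, 50.1% changed in RCC4 (25.9% up, 24.2% down), 39.1% in HepG2 (19.9% up, 19.2% down) and 20.4% in HKC-8 (11.2% up, 9.12% down). With the replicate number as a block, the HKC-8 share was 42.5% (21% up, 21.6% down). That fit was used beside the other in HKC-8 because same-numbered samples deviated together there, clearly so for numbers 2 and 3. With so few factors tested, the counts called, 4 of 6, 3 of 4 and 0 of 1, are given as a description beside these shares. The 3 lines share no samples in these comparisons.

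**Figure D3:**
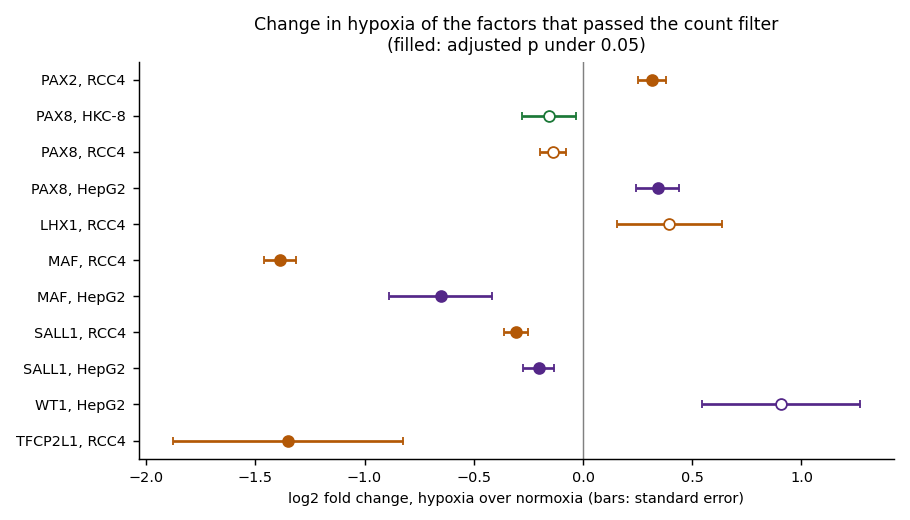
Log2 fold change of hypoxia over normoxia (horizontal axis) for each factor and line that passed the count filter, with the standard error as bar. Filled points had an edgeR adjusted p under 0.05. MAF fell by 1.39 on the log2 scale in RCC4 and by 0.65 in HepG2, and PAX8 lay above 0 in HepG2 and below it in the kidney lines.

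MAF showed the clearest change. In RCC4 cells it went from 24.99, 23.9 and 23.6 TMM CPM in normoxia to 8.99, 8.53 and 10.1 in hypoxia. The groups were far apart, with the highest hypoxic sample below the lowest normoxic one by more than the whole range within either group. The level was 2.62-fold lower in hypoxia (log2 change -1.39, SE 0.07, edgeR adjusted p = 2.135e-13), and 0.523% of the 12811 genes tested in RCC4 had a lower log2 change. In HepG2 cells MAF went from 2.08, 1.81 and 1.67 to 1.52, 1.11 and 0.905 TMM CPM, again without overlap, a change of -0.65 (SE 0.23, edgeR adjusted p = 0.04146). That call rested on few counts, 35 to 92 per sample, and was lost without normoxic replicate 1 (adjusted p = 0.1292) or 2 (0.08041) and without hypoxic replicate 2 (0.1211) or 3 (0.1422).

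The fall of MAF was larger in RCC4 than in HepG2 by 0.75 on the log2 scale (interaction of line and oxygen, SE 0.21, edgeR adjusted p = 0.01362). The difference was lost without HepG2 hypoxic replicate 1 (adjusted p = 0.1007) and with all 18 samples in 1 fit (0.05246). A difference in response was called for 22.6% of genes tested in this pair of lines (10.9% with a higher and 11.7% with a lower signed log2 change in RCC4), and for 2 of the 3 factors tested in both, each with a lower signed log2 change in RCC4. HKC-8 cells had 1 MAF count in 3 normoxic and 0 in 3 hypoxic samples, so no response could be measured there.

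SALL1 fell in both lines that express it. In RCC4 it went from 33.9, 32.3 and 33.8 to 27.5, 26.6 and 26.4 TMM CPM, and in HepG2 from 38.6, 34.96 and 38.0 to 30.2, 32.7 and 34.1. Hypoxic samples were below normoxic ones in each line, by a wide gap in RCC4 and narrowly in HepG2. The log2 change was -0.31 in RCC4 (SE 0.05, edgeR adjusted p = 5.229e-05) and -0.20 in HepG2 (SE 0.07, adjusted p = 0.03882). The HepG2 call was lost without normoxic replicate 1 (adjusted p = 0.1198) or 3 (0.05068), without hypoxic replicate 1 (0.1865) or 2 (0.09188), and with all 18 samples in 1 fit (0.06123). The responses of the lines differed by -0.11 (SE 0.09, adjusted p = 0.4031), which was not past the threshold.

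The paired-domain factors moved in different directions. PAX2 went in RCC4 cells from 34.0, 35.1 and 34.2 to 47.9, 38.1 and 42.0 TMM CPM, so each hypoxic sample was above each normoxic one, with a wider spread in hypoxia. It rose 1.24-fold (log2 0.32, SE 0.06, edgeR adjusted p = 0.0002326). With all 18 samples in 1 fit, where lines share 1 estimate of the spread, this was lost (adjusted p = 0.1728). PAX8 went in the same cells from 131.9, 136.6 and 127.0 to 131.6, 102.8 and 124.1, and the groups overlapped, with the first hypoxic replicate inside the normoxic range. Its change of -0.14 (SE 0.06) had an edgeR adjusted p of 0.05372, and without that replicate it was -0.21 (adjusted p = 0.00206). Leaving out normoxic replicate 3 (0.04227) or hypoxic replicate 3 (0.03482) also brought it past the threshold, whereas without hypoxic replicate 2, the lowest sample, the change was -0.039 (edgeR adjusted p = 0.4989).

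In HepG2 cells PAX8 went from 10.0, 8.77 and 9.50 to 12.7, 11.5 and 11.6 TMM CPM, without overlap. It rose 1.27-fold (log2 0.34, SE 0.10, edgeR adjusted p = 0.0131), a call lost without hypoxic replicate 1 (adjusted p = 0.07275). In HKC-8 cells PAX8 went from 176.5, 180.1 and 137.1 to 160.1, 152.7 and 129.3, with overlapping groups and a change of -0.16 (SE 0.12, adjusted p = 0.3974). With the replicate number as a block the change was -0.15 (edgeR adjusted p = 0.05506), and 5755 instead of 2757 of 13536 genes were called.

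The signed log2 change of PAX8 was lower in RCC4 than in HepG2 by 0.49 (SE 0.12, edgeR adjusted p = 0.005249; 0.05019 with all 18 samples in 1 fit). HKC-8 against HepG2 gave a difference of -0.50 (SE 0.16), which missed the threshold with an adjusted p of 0.05935 and passed it with the replicate block (adjusted p = 0.00157) and without HKC-8 normoxic replicate 3 (0.006972). A difference was called for 9.30% of genes in that pair of lines (4.28% with a higher and 5.02% with a lower signed log2 change in HKC-8). These comparisons share the HepG2 samples. HKC-8 against RCC4 gave 0.0007 (SE 0.15, adjusted p = 0.9999), where 15.2% of genes were called (7.29% higher and 7.87% lower in HKC-8, by signed log2 change), and its sign changed between settings.

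The factors at low level gave weaker results. TFCP2L1 went in RCC4 cells from 17, 20 and 28 to 2, 10 and 14 counts, with hypoxic samples all lower. Its change of -1.35 (SE 0.53, edgeR adjusted p = 0.03717) was lost without normoxic replicate 2 (adjusted p = 0.06154) or 3 (0.1689), without hypoxic replicate 1 (0.1735) or 2 (0.0711), in DESeq2 (0.05027) and with all 18 samples in 1 fit (0.1021). WT1 in HepG2 cells went from 19, 11 and 27 to 30, 49 and 26 counts, or 0.431, 0.246 and 0.644 to 0.714, 1.06 and 0.672 TMM CPM. The scaled groups did not overlap although the raw counts did, and the change of 0.91 (SE 0.36) had an edgeR adjusted p of 0.06371. It passed the threshold without normoxic replicate 3 (adjusted p = 0.01799).

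LHX1 in RCC4 cells went from 71, 56 and 39 to 70, 81 and 70 counts, a log2 change of 0.40 (SE 0.24, edgeR adjusted p = 0.181), with scaled hypoxic samples all above normoxic ones. TFCP2L1 in HKC-8 (0, 2 and 2 to 6, 8 and 3 counts) and EYA1 in RCC4 cells (2, 3 and 3 to 0, 1 and 0 counts) also did not overlap between groups but lay around the floor and were not tested. Among tested genes, hypoxic samples were all higher for 28.2% and all lower for 28.3% in RCC4, 24.6% and 25% in HepG2, and 19.7% and 19.5% in HKC-8.

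The relatives of the factors were examined next, from a list of 32 paralogues. Of these, 14 were tested in RCC4 (3 rose, 5 fell), 15 in HepG2 (5 rose, 3 fell) and 18 in HKC-8 (3 rose, 1 fell), with medians of -0.14, -0.06 and -0.18 on the log2 scale against medians within 0.004 of 0 over all genes tested. With the replicate block, 4 rose and 4 fell in HKC-8. Over all genes tested, 25.9% rose and 24.2% fell in RCC4, and 19.9% and 19.2% in HepG2. The HKC-8 shares were 11.2% and 9.12%, or 21% and 21.6% with the block. The small MAF proteins lack an activation domain and pair with other leucine-zipper factors. Of them MAFF rose in each line, by 0.68 in RCC4 (SE 0.08, edgeR adjusted p = 3.569e-07) and 0.98 in HepG2 (SE 0.11, adjusted p = 1.136e-05), where MAF fell, and by 1.37 in HKC-8 (SE 0.24, adjusted p = 0.00557). MAFK rose by 0.80 in HKC-8 (SE 0.22, edgeR adjusted p = 0.03221) and 0.28 in HepG2 (SE 0.09, adjusted p = 0.01763). Its change of 0.15 in RCC4 missed the threshold (adjusted p = 0.06687). MAFG fell by 0.24 in RCC4 and by 0.33 in HepG2 (adjusted p = 0.0008599 and 0.001694), and its change in HKC-8 was 0.14 (adjusted p = 0.2596).

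Of the other families, EYA3 was expressed in each line, with group means of 23.3 to 56.2 TMM CPM. It fell by 0.30 in RCC4 (SE 0.06, edgeR adjusted p = 0.0001862) and 0.28 in HepG2 (SE 0.08, adjusted p = 0.01073), and its change in HKC-8 was -0.22 (adjusted p = 0.05949), which passed the threshold with the replicate block (adjusted p = 0.01071). SALL2 stood at 19.9 ± 3.9 TMM CPM (SD, n = 3) in normoxic HKC-8 cells, the line with no SALL1 counts, at 14.8 ± 1.05 in HepG2 and at 0.921 ± 0.292 in RCC4. In hypoxia SALL2 fell by 0.92 in RCC4 (edgeR adjusted p = 0.03495) and rose by 0.28 in HepG2 (0.02191). Its change in HKC-8 was -0.14 (adjusted p = 0.5673). TFCP2, the widely expressed relative of TFCP2L1, fell by 0.39 in HKC-8 (SE 0.08, edgeR adjusted p = 0.009283) and 0.25 in HepG2 (SE 0.07, adjusted p = 0.01224). Its change of -0.08 in RCC4 was not past the threshold (adjusted p = 0.1389).

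Transcripts of genes that encode partner proteins were counted next. Of 20 listed cofactors, 16 were tested in HKC-8 (0 rose, 3 fell), 17 in RCC4 (2 rose, 4 fell) and 15 in HepG2 (2 rose, 2 fell), with median log2 changes of -0.054, 0.005 and -0.031. With the replicate block, 3 rose and 4 fell in HKC-8. All-gene shares up and down were 11.2% and 9.12% in HKC-8, or 21% and 21.6% with the block. They were 25.9% and 24.2% in RCC4, and 19.9% and 19.2% in HepG2. SIX2, which keeps nephron progenitors, was present in normoxic HKC-8 at 11.5 ± 1.09 TMM CPM and RCC4 at 4.70 ± 0.474 (SD, n = 3), and at 0 to 4 counts per normoxic HepG2 sample. LDB1, the LHX1 partner, passed the threshold in no line, with changes of -0.15 in HepG2, 0.01 in RCC4 and -0.08 in HKC-8.

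**Figure D4:**
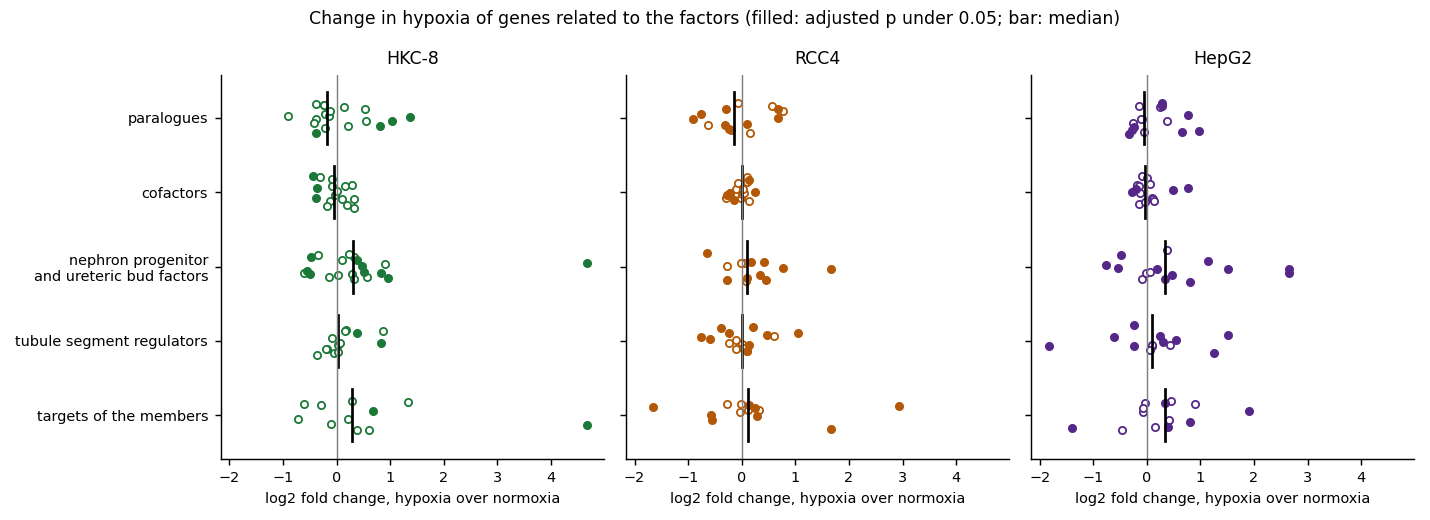
Log2 fold change of hypoxia over normoxia (horizontal axis) of each tested gene in 5 lists of related genes, by line. Filled points had an edgeR adjusted p under 0.05 and the vertical bar is the median of the list. Median changes lay between -0.18 and 0.34, with single genes such as SPRY1 in HKC-8 at 4.67.

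Among 33 nephron progenitor and ureteric bud genes, 13 were tested in RCC4 (7 rose, 2 fell), 15 in HepG2 (8 rose, 3 fell) and 20 in HKC-8 (6 rose, 3 fell), with median log2 changes of 0.11, 0.34 and 0.30. With the replicate block, 9 rose and 5 fell in HKC-8. Among all genes tested, 25.9% rose and 24.2% fell in RCC4, and 19.9% and 19.2% in HepG2. The shares in HKC-8 were 11.2% and 9.12%, or 21% and 21.6% with the block. SPRY1, a feedback inhibitor of RET signalling that is also a WT1 target, rose by 4.67 in HKC-8 (SE 0.19, edgeR adjusted p = 1.917e-06) and 1.67 in RCC4 (SE 0.15, adjusted p = 4.79e-09). In these 2 lines WT1 had 0 to 2 counts per sample. The normoxic mean of SPRY1 was 0.281 TMM CPM in HKC-8 and 1.672 in RCC4. In HepG2, SPRY1 rose by 0.34 (SE 0.08, adjusted p = 0.003291). FOXD1, a factor of the renal stroma, rose by 2.66 in HepG2 cells (edgeR adjusted p = 0.0001372), from a normoxic mean of 0.27 TMM CPM. FOXD1 also rose by 0.47 in HKC-8 (adjusted p = 0.02863) and 0.35 in RCC4 (0.0001561). CITED2, which restrains HIF at its coactivator, rose by 2.65 in HepG2 (edgeR adjusted p = 1.074e-11). Its rise was 0.51 in HKC-8 (adjusted p = 0.001696) and 0.18 in RCC4 (0.0002211). BMP4, a ligand that limits ureteric budding, fell by 0.64 in RCC4 (edgeR adjusted p = 0.003543) and rose by 0.46 in HepG2 (adjusted p = 2.492e-05).

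Among 25 regulators of tubule segments, 13 were tested in HKC-8 (2 rose, 0 fell), 16 in RCC4 (5 rose, 4 fell) and 13 in HepG2 (5 rose, 4 fell), with medians of 0.034, 0.009 and 0.10. In HKC-8 the replicate block gave 2 that rose and 1 that fell. All-gene shares up and down were 11.2% and 9.12% in HKC-8, or 21% and 21.6% with the block. They were 25.9% and 24.2% in RCC4, and 19.9% and 19.2% in HepG2. HNF4A, a factor of proximal tubule and liver, had 0 to 5 counts in normoxic kidney-line samples and 227.6 ± 8.42 TMM CPM in normoxic HepG2. POU3F3, a factor of the loop of Henle, rose by 1.06 in RCC4 (SE 0.19, edgeR adjusted p = 7.827e-05).

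Genes known to lie downstream of the factors, 23 in the list, were tested for 11 in HKC-8 (2 rose, 0 fell), 13 in RCC4 (5 rose, 3 fell) and 13 in HepG2 (4 rose, 1 fell), with medians of 0.29, 0.12 and 0.34. In HKC-8 the replicate block gave 5 that rose and 2 that fell. Shares up and down over all genes were 11.2% and 9.12% in HKC-8, or 21% and 21.6% with the block. They were 25.9% and 24.2% in RCC4, and 19.9% and 19.2% in HepG2. CDH16, the kidney cadherin that PAX8 can activate, fell in RCC4 from 229.1 ± 1.16 to 153.7 ± 0.292 TMM CPM (log2 change -0.57, SE 0.03, edgeR adjusted p = 1.332e-12). PAX8 itself did not pass the threshold in RCC4. CDH16 changed by 0.45 in HepG2 (adjusted p = 0.1351), where PAX8 rose, and by 0.39 in HKC-8 (0.4127). A link between PAX8 and CDH16 was not tested. CP, the ceruloplasmin gene, rose by 2.93 in RCC4 (SE 0.05, adjusted p = 3.987e-23) and 1.90 in HepG2 (SE 0.10, adjusted p = 6.926e-09). Proximal tubule markers moved with the RCC4 groups as well, 1 of 9 tested rising and 6 falling. Over all genes tested in RCC4, 25.9% rose and 24.2% fell. The summed level of these markers was 213.9 to 220.7 TMM CPM in normoxia and 181.2 to 188.1 in hypoxia. In HepG2 2 of 8 rose and 1 fell, and in HKC-8 3 of 6 rose and 0 fell, also with the replicate block. The 2 tested markers of loop, distal tubule and collecting duct fell in RCC4. The part of the markers in the changes of the factors was not tested.

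The genes whose profiles were most like each expressed factor followed the lines. Over the 18 samples, Pearson's r of log2(TMM CPM + 0.5) was highest with PAX2 for NTM, FAM83F and UGT1A9 (0.9996, 0.9995 and 0.9995), with PAX8 for BDNF, VEGFC and FAR1 (0.9969, 0.9965 and 0.9963) and with MAF for TM7SF3, FDX1 and ACSM5 (0.9933, 0.9889 and 0.9871). For SALL1 they were SPP1, CRYL1 and ZNF114 (0.999, 0.9974 and 0.997), and for LHX1 EBF4, C5orf15 and TBC1D1 (0.9848, 0.982 and 0.9807). The samples share lines and fall into 3 clusters, and between 221 and 789 of 15306 genes had an r over 0.95 with a given factor.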

How the data were processed

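The authors trimmed reads with Trim Galore 0.3.3, aligned them to GRCh37 with TopHat2 2.0.8b and Bowtie 1.0.0, kept uniquely mapped fragments and counted reads per UCSC gene with HTSeq 0.5.4p3. The deposited values are these raw counts, 1 table per sample, and the authors did not normalize them. Unique mapping lowers counts of genes with near-identical copies. The strand setting of the counting is not given in the sources used here.

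From these counts, edgeR 4.0.16 in R 4.3.3 compared groups over all genes (filterByExpr, TMM, quasi-likelihood F test, Benjamini-Hochberg, threshold 0.05). SE is the log2 fold change divided by the square root of F. Lines were fitted apart, and differences in response were interaction terms in fits of 12 samples, read only for factors tested in both lines, a restriction made after their values were seen. Levels are TMM CPM from 1 scaling of the 18 samples, with SD, and RPKM used canonical GENCODE transcript lengths. Counting intervals are exact at 95%. Steps were tested on simulated data. Alternatives were RLE size factors, no filter, at least 10 counts in every sample, DESeq2 1.42.0, all 18 samples in 1 fit, the replicate block, each sample left out and other expression limits.

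The factors and gene lists were chosen with earlier results of these data known. All 8 factors are named. Some listed genes are counted in their lists but not reported here by name. Lists are given by counts, medians and up to 4 called genes with the largest changes, with set relatives, partners and the 3 most alike genes per factor. Same-numbered normoxic and hypoxic samples deviated together in HKC-8 (r = 0.176, 0.631 and 0.577 over 13536 genes), so its replicate numbers, given in the labels, were taken to pair samples. Unlike numbers gave r of -0.587 to 0.154 there, so number 1 was hardly set apart. In RCC4 (r = -0.006, 0.024 and 0.033) and HepG2 (0.231, 0.055 and 0.226) they were not. Unlike numbers gave -0.232 to 0.053 in HepG2, so some pairing there is possible, and the block was run as an alternative.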

Additional observations from a re-analysis of the deposited data

Results flagged for a closer look

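Differences in hypoxia response between RCC4 and HepG2 drew attention for 2 factors. The change of PAX8 in RCC4 minus that in HepG2 was -0.4861 on the log2 scale (edgeR adjusted p = 0.005249), with a change of -0.14 in RCC4 and 0.34 in HepG2. For MAF the difference was -0.7466 (adjusted p = 0.01362), with changes of -1.39 and -0.65. Hypoxic samples lay below normoxic ones in 3 of 3 samples of each line for MAF, and above them in 3 of 3 for PAX8 in HepG2. Among all tested genes, hypoxic samples were all lower for 28.3% in RCC4 and 25% in HepG2, and all higher for 24.6% in HepG2. A difference in response was called for 22.6% of genes tested in this pair of lines. With all 18 samples in 1 fit, the differences of PAX8 and MAF missed the threshold. The labels give these lines unlike oxygen levels and durations, and line and exposure cannot be told apart.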

How the results depend on the processing

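The fall of MAF and SALL1 in RCC4 kept direction and call under each alternative run, and the rise of PAX2 did so except with all 18 samples in 1 fit. In that fit 0 factors (against 1) were called higher in RCC4, 1 (against 2) lower in HepG2, 0 (against 2) differed in response between RCC4 and HepG2 and 1 (against 0) between HKC-8 and HepG2. The last count was also 1 in DESeq2 and with the replicate block. The block brought PAX8 in RCC4, where numbers did not pair samples, past the threshold (adjusted p = 0.0462), as did RLE size factors (0.04887) and no filter (0.002493), and beside that of PAX8 between HKC-8 and HepG2 (adjusted p = 0.00157) the block changed no other call of a factor. With at least 10 counts in every sample, 2 factors (against 1) rose in HepG2, where WT1 passed (adjusted p = 0.04561). In the comparisons of levels, where that filter took low factors out of the test, 0 (against 3) were called lower in HKC-8 than in HepG2, 2 (against 5) higher in RCC4 than in HepG2 and 0 (against 5) lower in HKC-8 than in RCC4. No filter gave 5 lower in HKC-8 than in HepG2, and hypoxic samples gave 2 (against 1) lower in RCC4 than in HepG2. A limit of 0.5 CPM gave 4 (against 2) expressed factors in hypoxic HepG2. Where no value shows it, the cause was not tested.

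Leaving out 1 sample gave 0 to 2 factors higher and 0 to 1 lower in hypoxic HepG2, 1 to 2 lower in RCC4 than in HepG2, 0 to 1 higher in HKC-8 than in RCC4, and 0 to 1 (HKC-8 against HepG2) and 1 to 2 (RCC4 against HepG2) with a lower signed log2 change in the first line. The response of PAX8 in HKC-8 minus that in RCC4, 0.0007, turned to -0.0073 with RLE size factors, -0.024 without a filter, -0.0074 in DESeq2 and -0.017 with all 18 samples, and ranged from -0.12 to 0.071 without 1 sample. Over all genes, 5013 (18 samples), 5755 (block) and 1013 to 3283 (without 1 sample), against 2757, were called in HKC-8, and 3286 against 6423 (18 samples) in RCC4. For differences in response these were 2219 (18 samples), 3019 (block) and 911 to 1890 against 1399 for HKC-8 and HepG2, 1886 (18 samples) against 3354 for RCC4 and HepG2, and 4071 (block) against 2154 for HKC-8 and RCC4.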
